A study of Homo sapiens with 2 samples.

Results

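The 10 genes described here carry signals of transforming growth factor beta (TGF-beta) from outside the cell to the nucleus. They are the ligand gene TGFB1, the receptor genes TGFBR1 and TGFBR2, the mediator genes SMAD2, SMAD3 and SMAD4, and the inhibitor genes SMAD7, SKI, SKIL and TGIF1. They were chosen by name for these roles, with no threshold on their values, though earlier results of these data were known. They are 10 of the 36601 genes in both deposited matrices. All 10 were among the 12128 genes treated as measured, which means 50 or more molecules over both libraries. Single-cell RNA sequencing on the 10x Genomics platform was performed on 2 libraries whose labels give MOLT4, a human cell line established from T-cell acute lymphoblastic leukemia and grown in RPMI-1640 with fetal bovine serum. The control library came from untreated cells, and the other library from cells treated for 48 h with SP11 at 0.8 µM, a compound presented in the study as an inhibitor of the chaperone HSP90. The comparison asks how the transcripts of this pathway differ between untreated and SP11-treated cells. The study's methods mention replicates of this experiment, but the labels give 1 library per group, and whether cultures were pooled is not stated. With 1 library per group there is no replicate check, so no test was made and every difference compares these libraries rather than the conditions.

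TGF-beta is secreted in a latent complex and, once released, binds a receptor pair in which TGFBR2 phosphorylates TGFBR1. TGFBR1 then phosphorylates SMAD2 and SMAD3, which join SMAD4 and enter the nucleus to switch target genes on or off. SMAD7 blocks the receptor and recruits ubiquitin ligases to it, and its gene is itself a target of the pathway, while SKI, SKIL and TGIF1 hold SMAD complexes in a repressed state. In blood formation the pathway is best known for restraining the proliferation of early progenitors. Both receptors are known client proteins of HSP90.

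The quality filters kept 1053 of 1076 control barcodes and 852 of 864 SP11 barcodes. Kept control cells held 19375163 molecules counted as unique molecular identifiers (UMIs) and kept SP11 cells 9498802, with medians of 17711 and 10488.5 per cell. The median share of mitochondrially encoded UMIs was 8.94% in control and 5.51% in SP11. With totals that leave out mitochondrial genes the log2 ratios of SMAD3 and TGFB1 were -2.43 and -1.51, and with at most 10% mitochondrial UMIs per cell they were -2.38 and -1.47. Under both settings 6 of the 10 genes were at least 1.5-fold lower. Of all measured genes, 4936 of 12128 were lower under the first setting and 4454 of 11726 under the second. The libraries shared 114 barcodes, of which 109 were kept in both, and the median correlation across 2000 genes was 0.00846 for cells with the same barcode and -0.000507 for other pairs. Without these barcodes the log2 ratio of SMAD3 was -2.32 and that of TGFB1 was -1.43. The labelled T-cell identity was not seen in the markers: 17 of 31 T-lineage genes were at 0 UMIs in control, 19 were in SP11, and CD3D, CD3G, CD7, TRBC1 and TRBC2 were at 0 in both. The summed level of that list was 76.8 CPM (UMIs of a gene scaled to a common library total, the usual CPM scale) in control and 49.8 CPM in SP11, with only CD4 at 10 CPM or more. The 23 genes of a granulocyte precursor or monocyte list summed to 3126 CPM and 3161 CPM, with 14 and 16 of them at 10 CPM or more and MRC1 at 0 in both libraries. Other members were low in both: MPO had 3 and 5 UMIs, CD14 had 3 and 20, and CSF1R had 9 and 22 in control and SP11. Genes of this list stood apart in both directions: ELANE went from 1110 to 477 CPM, AZU1 from 437 to 94.2, PRTN3 from 263 to 97.6 and SPI1 from 90.1 to 27.9, while LYZ went from 241 to 736 CPM, S100A8 from 4.95 to 219 and FCER1G from 174 to 480. Lists of 5 B-cell, 6 erythroid or megakaryocyte and 6 epithelial or fibroblast genes summed to 23.2, 5.68 and 0.258 CPM in control and to 16.1, 6.42 and 0 CPM in SP11. The cells are therefore named by their library here, and the part of this marker pattern in the results was not tested.

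SMAD3, which encodes a receptor-activated mediator, and TGFB1, which encodes the ligand, stood furthest below control in the SP11 library, at 5.18-fold and 2.74-fold lower. The other mediators SMAD2 and SMAD4 and the inhibitors SKI and TGIF1 were 1.60-fold to 1.89-fold lower, and the 2 receptors and the inhibitors SMAD7 and SKIL were within 1.12-fold of control. At a size of 1.5-fold, 6 of the 10 genes were lower in SP11 and 0 were higher, while 38.4% of all measured genes were lower and 10.7% were higher. The median log2 ratio of the 10 genes was -0.69, against a median of -0.35 over all measured genes. Taken relative to that median gene, SMAD3 and TGFB1 were at least 1.5-fold lower and 0 of the 10 genes were higher, where 24.3% of measured genes were lower and 22.5% were higher. The count on the CPM scale depends on the scaling: 3 of the 10 genes were lower with trimmed-mean (TMM) factors, 2 with DESeq2 size factors and 2 after subtraction of the trend with intronic length, with 0 higher in each. Of all measured genes 25% were lower and 21.5% higher with TMM factors, 24.3% and 22.5% with DESeq2 size factors, and 23.1% and 17.8% after that subtraction. The size of 1.5-fold is a description and not a test.

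**Figure D1:**
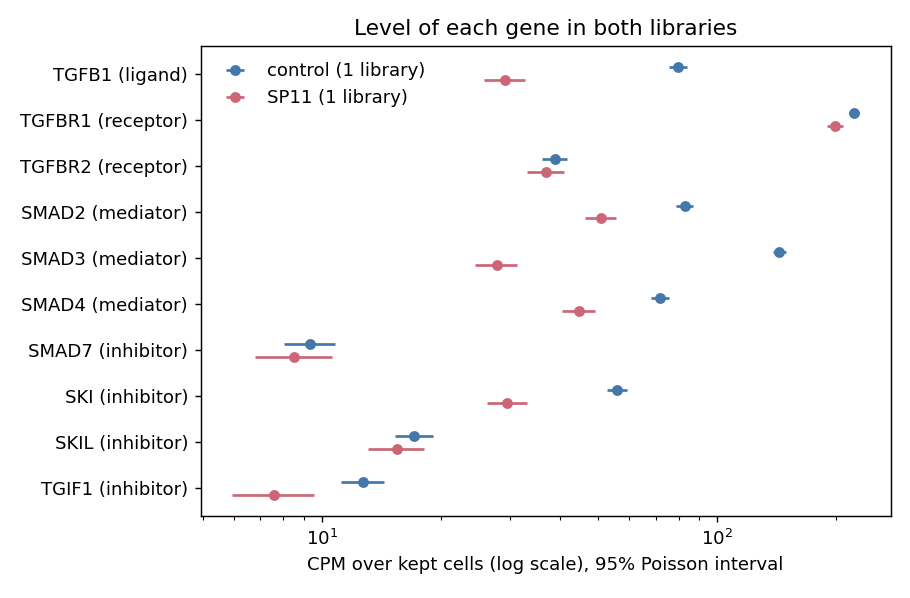
Level of each gene in the control library (blue) and the SP11 library (red) in CPM over kept cells on a log axis, with exact 95% Poisson intervals that cover counting error only. SMAD3 went from 144 to 27.7 CPM and TGFB1 from 79.7 to 29.1 CPM, while the intervals of TGFBR2, SMAD7 and SKIL overlap between the libraries.

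TGFB1 (ENSG00000105329) lies on the minus strand of chromosome 19 at chr19:41301587-41353922 (GRCh38). It had 1544 UMIs in control, or 79.7 CPM, and 276 UMIs in SP11, or 29.1 CPM. The log2 ratio of SP11 to control was -1.46 with a 95% interval of -1.65 to -1.27, an exact (Clopper-Pearson) interval on how its UMIs divide between the libraries, which covers counting error only. Relative to the median measured gene the ratio was -1.10. The study had itself reported lower TGFB1 in SP11-treated MOLT4 cells, from its single-cell data. Genes with long introns were lower in SP11 in general, and after subtraction of the median of the 603 genes of similar intronic length TGFB1 was at -0.99, with 68 of those 603 genes below it. The span of TGFB1 overlaps an annotated long noncoding RNA on its own strand, so reads could be divided between TGFB1 and that RNA. HNRNPUL1, CCDC97 and TMEM91 overlap it on the other strand.

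The receptors had levels close to those of control. TGFBR1 (ENSG00000106799, chr9:99104038-99154192, plus strand), the type I receptor that activates the SMADs, had 4300 and 1887 UMIs in control and SP11, or 222 and 199 CPM. Its log2 ratio was -0.16 (95% interval -0.24 to -0.08) on the CPM scale and 0.17 with TMM factors, so its direction depends on the scaling. TGFBR2 (ENSG00000163513, chr3:30606601-30694142, plus strand), the type II receptor that binds the ligand, had 752 and 350 UMIs, or 38.8 and 36.8 CPM. Its log2 ratio was -0.07, its interval of -0.26 to 0.11 holds 0, and the sign turned to 0.25 with TMM factors and to 0.50 after subtraction of the intronic length trend. Both receptors lay above the median measured gene, by 0.19 for TGFBR1 and 0.28 for TGFBR2 on the log2 scale. The balance between them was close in both libraries: TGFBR1 took 85.1% (84.1 to 86.1) of the receptor UMIs in control and 84.4% (82.8 to 85.8) in SP11, with exact binomial intervals.

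The mediators differed in how far they stood from control. SMAD3 (ENSG00000166949, chr15:67063763-67195173, plus strand) had 2781 and 263 UMIs in control and SP11, or 144 and 27.7 CPM. Its log2 ratio was -2.37 (95% interval -2.56 to -2.19), and 3.78% of measured genes had a lower ratio. Relative to the median gene it was -2.02, and against the 603 genes of similar intronic length it was -1.68, with 21 of them below it. The cells with the most SMAD3 UMIs held 13 and 13 of the 2781 in control and 12 and 7 of the 263 in SP11. SMAD2 (ENSG00000175387, chr18:47808957-47931146, minus strand), the other receptor-activated mediator, had 1607 and 483 UMIs, or 82.9 and 50.8 CPM, and a log2 ratio of -0.71 (-0.86 to -0.56). SMAD4 (ENSG00000141646, chr18:51028528-51085045, plus strand), the shared partner of both, had 1387 and 424 UMIs, or 71.6 and 44.6 CPM, and a log2 ratio of -0.68 (-0.84 to -0.52). SMAD2 and SMAD4 thus stood only 0.35 and 0.33 below the median gene on the log2 scale.

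The balance between the 2 receptor-activated mediators differed between the libraries. SMAD3 gave 63.4% (61.9 to 64.8) of the UMIs of SMAD2 and SMAD3 together in control and 35.3% (31.8 to 38.8) in SP11. SMAD3 likewise gave 66.7% (65.3 to 68.2) of the UMIs of SMAD3 and SMAD4 in control and 38.3% (34.6 to 42.0) in SP11. SMAD2 against SMAD4 was at 53.7% (51.9 to 55.5) and 53.3% (49.9 to 56.5), with overlapping intervals. Such splits do not depend on the library total, but they could depend on reads in introns, which was not tested. After subtraction of the intronic length trend the log2 ratios were -1.68 for SMAD3, -0.14 for SMAD2 and -0.34 for SMAD4. Annotated long noncoding RNAs lie on the strand opposite to SMAD3 and SMAD2.

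Among the inhibitors, SKI and TGIF1 were lower and SMAD7 and SKIL were near control. SKI (ENSG00000157933, chr1:2227388-2310213, plus strand), a corepressor that binds SMAD complexes, had 1081 UMIs for control and 280 for SP11, or 55.8 and 29.5 CPM, and its log2 ratio was -0.92 (-1.12 to -0.73). TGIF1 (ENSG00000177426, chr18:3411608-3459978, plus strand), a homeodomain repressor recruited by SMAD2, had 246 and 72 UMIs, or 12.7 and 7.58 CPM, and its log2 ratio was -0.74 (-1.14 to -0.36). SMAD7 (ENSG00000101665, chr18:48919853-48950965, minus strand) had only 181 and 81 UMIs, or 9.34 and 8.53 CPM, and its log2 ratio of -0.13 had an interval of -0.53 to 0.25. SKIL (ENSG00000136603, chr3:170357342-170396835, plus strand), the close relative of SKI, had 332 and 147 UMIs, or 17.1 and 15.5 CPM, and a log2 ratio of -0.15 (-0.44 to 0.14). The sign of SMAD7 and SKIL turned with TMM factors, to 0.19 and 0.18. Within the pair of corepressors, SKI gave 76.5% (74.2 to 78.7) of the UMIs in control and 65.6% (60.9 to 70.1) in SP11, and with the intronic length trend subtracted their log2 ratios were -0.35 for SKI and 0.15 for SKIL. SMAD7 and SMAD6, the other inhibitory SMAD, shifted likewise: SMAD6 gave 84.1% (81.8 to 86.1) of their UMIs in control and 71.9% (66.3 to 77.0) in SP11.

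**Figure D2:**
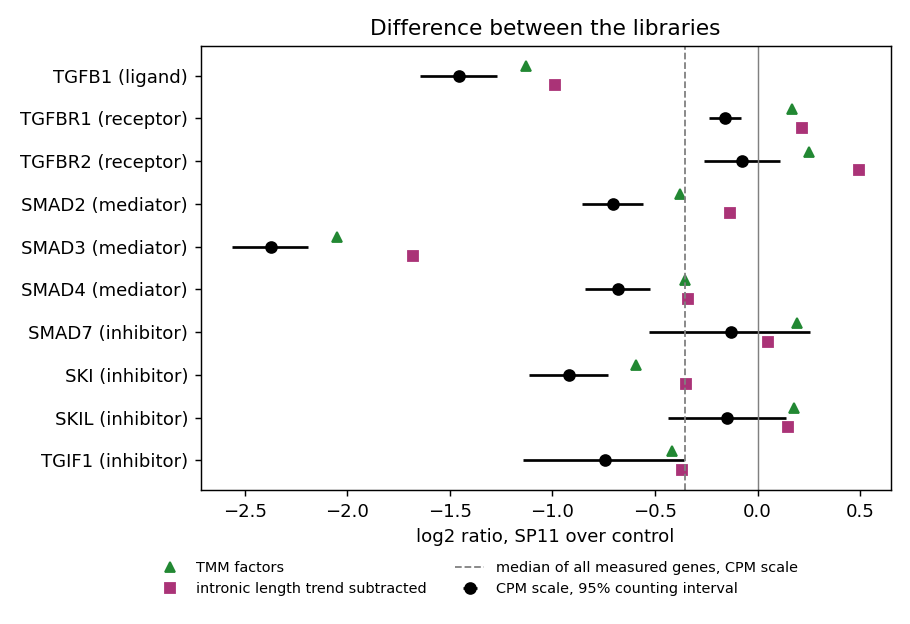
Log2 ratio of SP11 to control for each gene on the CPM scale with its 95% counting interval (black), with TMM factors (green) and after subtraction of the intronic length trend (purple), with a dashed line at -0.35, the median over measured genes on the CPM scale. TGFB1, SMAD2, SMAD3, SMAD4, SKI and TGIF1 lie left of 0 on all 3 scales, while TGFBR1, TGFBR2, SMAD7 and SKIL pass 0 with TMM factors. The dashed line belongs to the CPM scale only, and with TMM factors the median over measured genes was at -0.03.

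SMAD3 and SMAD4 bind the short DNA element CAGAC, and the windows before the start sites of TGFB1, SMAD3 and SMAD7 are shown, for the 1 listed start site per gene nearest to the start of its canonical GENCODE 44 transcript, because TGFB1 and SMAD3 stood lowest and SMAD7 is a known direct target that stood near control. The sequences are from RefSeq (GRCh38.p14), 240 bases up to the base before the start site, written 5′ to 3′ on the strand of the gene, with CAGAC and its complement GTCTG in capitals. The windows are TGFB1 at chr19:41353923-41354162 (minus strand), SMAD3 at chr15:67065362-67065601 (plus strand) and SMAD7 at chr18:48950966-48951205 (minus strand).
TGFB1: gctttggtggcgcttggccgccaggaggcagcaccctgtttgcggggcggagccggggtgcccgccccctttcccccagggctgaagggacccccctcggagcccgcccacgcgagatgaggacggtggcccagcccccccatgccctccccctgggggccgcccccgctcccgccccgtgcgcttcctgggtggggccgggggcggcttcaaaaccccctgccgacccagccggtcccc
SMAD3: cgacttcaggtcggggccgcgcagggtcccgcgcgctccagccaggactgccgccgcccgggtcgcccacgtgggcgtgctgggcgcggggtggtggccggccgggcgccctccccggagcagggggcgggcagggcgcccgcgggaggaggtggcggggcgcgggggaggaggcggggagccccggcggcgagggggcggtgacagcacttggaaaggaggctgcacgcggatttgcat
SMAD7: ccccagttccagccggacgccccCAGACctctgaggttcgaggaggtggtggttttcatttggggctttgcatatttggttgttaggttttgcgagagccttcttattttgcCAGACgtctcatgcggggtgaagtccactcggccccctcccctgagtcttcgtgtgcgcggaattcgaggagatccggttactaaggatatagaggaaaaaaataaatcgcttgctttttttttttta
The SMAD7 window held CAGAC at 217 and 128 bases before the start, and these windows of TGFB1 and SMAD3 held none. At all listed start sites together, CAGAC was in 0 of 1 window of TGFB1, 2 of 5 windows of SMAD3 and 2 of 3 windows of SMAD7. Of 9 genes with an entry in the RefSeq table, 3 held CAGAC on either strand within 250 bases before the canonical start: SMAD7 with 2 sites, TGFBR1 with 1 site at 213 bases and SKIL with 1 site at 107 bases. With every listed start site counted, 5 of the 9 genes held it in at least 1 window, SMAD3 and TGIF1 (4 of 7 windows) being added. Among all 35116 windows of that length 38.0% held it, a share per window. It is not a background for the 5 of 9 genes, since genes with more windows had more chances to hold it. The palindrome GTCTAGAC was in 0 of the 9 and in 0.182% of all such windows. A match describes the letters of a window and is not a binding site, and its part in the levels of these genes was not tested.

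Shares of cells with a UMI were compared after thinning every cell to 4400 UMIs, in 963 control and 769 SP11 cells, with 90 and 83 shallower cells left out. SMAD3 was then seen in 44.7% (41.5 to 47.9) of control cells and 10.8% (8.69 to 13.2) of SP11 cells, and without thinning in 78.6% and 23.6%. TGFB1 was seen in 28.6% (25.7 to 31.5) and 9.75% (7.75 to 12.1), and without thinning in 68.2% and 24.3%. After thinning, 40 control cells and 1 SP11 cell held 3 or more SMAD3 UMIs. SMAD2 went from 30.4% (27.5 to 33.4) to 19.9% (17.1 to 22.9), SMAD4 from 27.7% (24.9 to 30.7) to 19.1% (16.4 to 22.1) and SKI from 19.2% (16.8 to 21.8) to 10.4% (8.34 to 12.8). TGFBR1 was seen in 57.8% (54.6 to 61.0) and 56.7% (53.1 to 60.2), and TGFBR2 in 14.2% (12.1 to 16.6) and 15.2% (12.7 to 18.0). Without thinning the receptor shares were 86.2% and 77.2% for TGFBR1 and 44.6% and 28.6% for TGFBR2, at the unequal depths of the libraries. SMAD7, SKIL and TGIF1 were each seen in under 7% of thinned cells of either library, with overlapping intervals. At 8000 UMIs per cell, in 951 control and 598 SP11 cells, TGIF1 was seen in 9.25% (7.49 to 11.3) and 4.52% (3.0 to 6.50), which do not overlap, while SMAD7 and SKIL still overlapped. For the other 7 genes the intervals overlapped or not alike at 2000, 4400 and 8000 UMIs. No cell type that lacks these genes was at hand, so the share that free RNA gives was not measured.

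**Figure D3:**
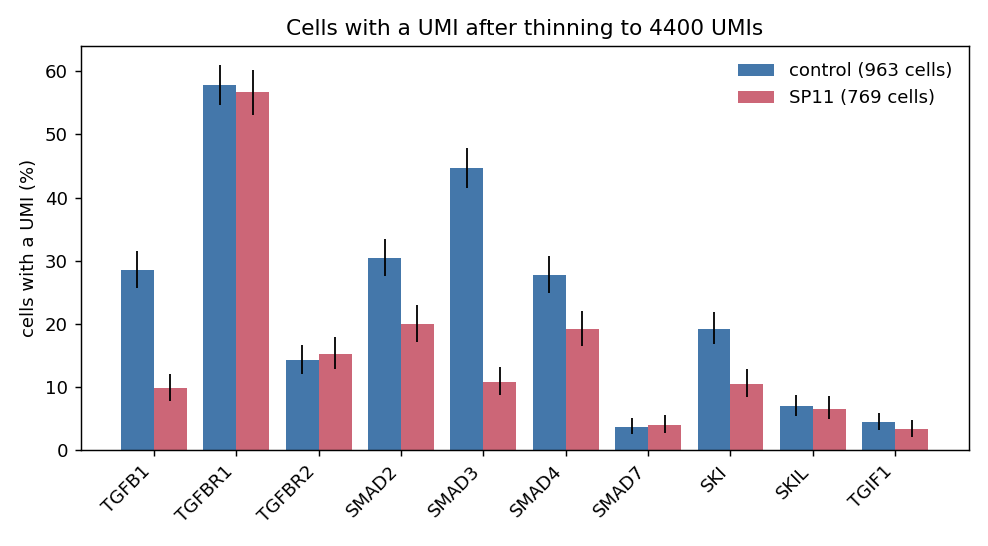
Percent of cells with at least 1 UMI of each gene after thinning to 4400 UMIs, in 963 control cells (blue) and 769 SP11 cells (red), with exact 95% binomial intervals. The bars of SMAD3 are at 44.7% and 10.8% and those of TGFB1 at 28.6% and 9.75%, while those of TGFBR1 are at 57.8% and 56.7%.

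The parts of the pathway that act together were seen together in few cells at this depth. Both receptors had a UMI in 9.24% (7.49 to 11.2) of thinned control cells and 9.10% (7.16 to 11.4) of SP11 cells. SMAD3 and SMAD4 were both seen in 12.5% (10.4 to 14.7) of control cells and 2.08% (1.19 to 3.36) of SP11 cells. The product of the single shares is 12.4% and 2.06%, so these genes were seen together about as often as unrelated detection would give. SMAD2 and SMAD4 were both seen in 8.10% (6.45 to 10.0) and 4.42% (3.08 to 6.12), and TGFB1 with TGFBR1 in 17.3% (15.0 to 19.9) and 5.98% (4.41 to 7.90). A thinned control cell held a median of 2 of the 10 genes, and a thinned SP11 cell a median of 1.

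Clustering each library alone gave 6 clusters in control and 6 in SP11, and the levels within them are a description, since the clusters were made from all genes. Cluster 5 of control and cluster 4 of SP11 had medians of 787.5 and 1826 UMIs per cell, far below the others, and held 0 to 1 SMAD3 UMI. In the other 5 control clusters SMAD3 was at 137 to 159 CPM, and in the other 5 SP11 clusters at 17.0 to 32.9 CPM. TGFB1 was at 71.1 to 113 CPM in those control clusters and at 10.8 to 36.4 CPM in those SP11 clusters. These ranges do not overlap, nor do those of SMAD2 and SMAD4, so 4 of the 10 genes had every such SP11 cluster below every such control cluster, a pattern that 24% of measured genes had. With the shallow clusters included only TGFB1 had it, against 5.95% of measured genes, and 0 of the 10 genes had every SP11 cluster above every control cluster, against 2.84%. The highest TGFB1 level was in control cluster 3, at 113 CPM (99.99 to 128), a cluster of 143 cells led by DEFB1, AC008764.6, AL118516.1, BAALC-AS1 and AC132872.5. In the control clusters other than shallow cluster 5, SKI ranged from 26.4 CPM (19.6 to 34.8) in cluster 2 to 71.6 CPM (61.2 to 83.3) in cluster 3. The leading genes of cluster 2 were AL136962.1, C4orf47, AC093827.4, DDIT4 and PFKFB4. By cell cycle phase, 81.9% of cluster 2 was called G1 and 69.9% of cluster 3 was called G2M. Over all control cells SKI was at 40.6 CPM in G1, 50.7 in S and 70.1 in G2M, and the part of phase in the range was not tested.

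**Figure D4:**
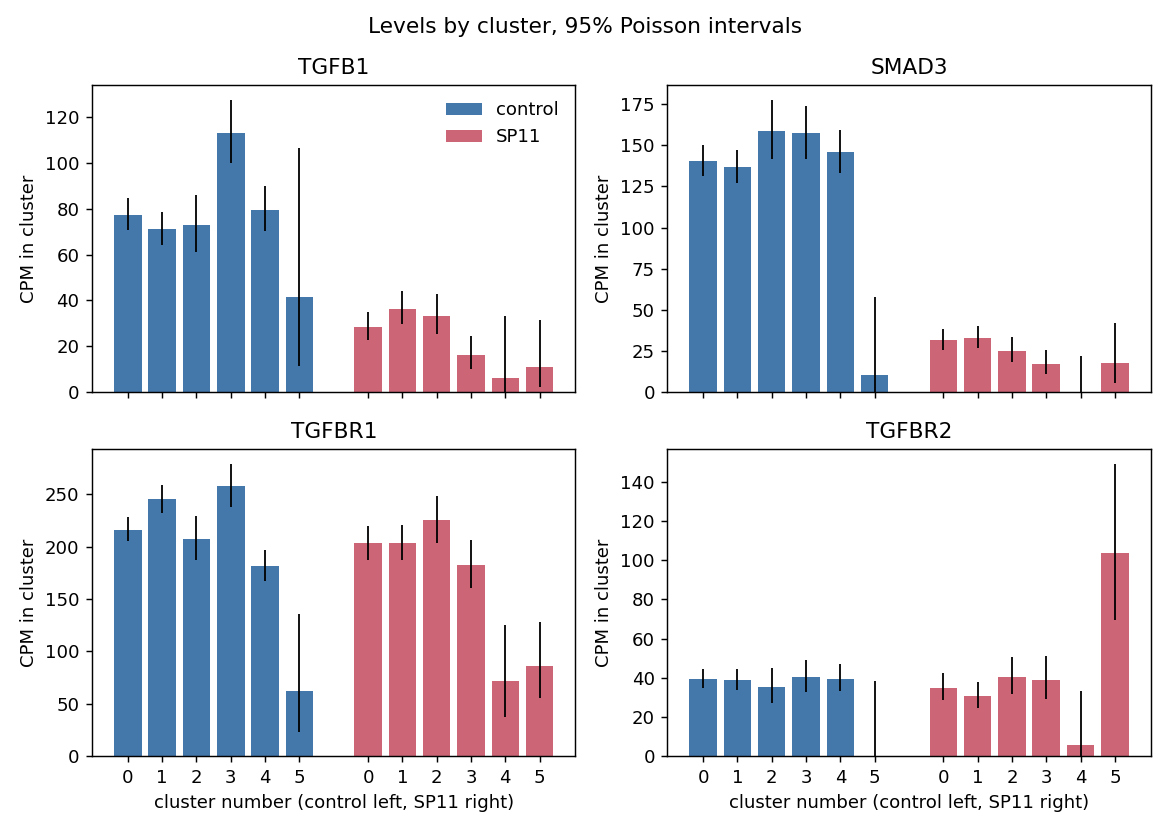
CPM of TGFB1, SMAD3, TGFBR1 and TGFBR2 in each of the 6 control clusters (blue) and 6 SP11 clusters (red), with exact 95% Poisson intervals. Control cluster 5 and SP11 cluster 4 are the shallow ones, and TGFBR2 in SP11 cluster 5 stands at 104 CPM.

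TGFBR2 stood apart in SP11 cluster 5, a group of 20 cells led by ATP6V0D2, SLC26A11, TDO2, MMP1 and S100A12, of which 95% were called G1. TGFBR2 had 29 UMIs there, or 104 CPM (69.6 to 149), in 15 of the 20 cells, against 30.8 to 40.4 CPM in the other deep SP11 clusters and 35.4 to 40.3 CPM in the deep control clusters. TGFBR1 was lower in the same 20 cells, at 86.0 CPM (55.1 to 128). SMAD7 had 6 UMIs there, or 21.5 CPM (7.89 to 46.8), and TGFB1 had 3 UMIs, or 10.8 CPM (2.22 to 31.4). Without this cluster the log2 ratio of TGFBR2 between the libraries was -0.16 and that of SMAD3 was -2.36.

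The same differences were then read within cell cycle phases, which were called in each library alone and hold 336 and 228 cells in G1, 352 and 265 in S and 365 and 359 in G2M for control and SP11. SMAD3 was lower in SP11 in each phase, with log2 ratios of -2.31 in G1, -2.36 in S and -2.44 in G2M. TGFB1 was at -1.36, -1.70 and -1.40, and the median of all measured genes in the same phases was at -0.34, -0.38 and -0.30. SKIL, near control over all cells, was at 0.23 (-0.39 to 0.83) in G1, 0.46 (-0.08 to 0.98) in S and -0.74 (-1.18 to -0.31) in G2M, so the counting intervals of S and G2M do not overlap. In G2M cells SKIL went from 23.0 CPM with 178 UMIs to 13.8 CPM with 61 UMIs. SKI was at -0.38 (-0.79 to 0.03) in G1, -1.09 (-1.48 to -0.71) in S and -1.12 (-1.39 to -0.85) in G2M. TGFBR2 kept an interval that holds 0 in all 3 phases.

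Beyond these 10 genes, a wider list of 86 genes of the pathway in 8 roles held 55 measured genes, of which 21 were at least 1.5-fold lower in SP11 and 3 higher, with a median log2 ratio of -0.51. That is 38.2% lower, beside 38.4% of all measured genes, and relative to the median gene 8 were lower and 8 higher. With TMM factors 9 were lower and 8 higher, and after subtraction of the intronic length trend 7 were lower and 10 higher, beside the shares of all measured genes given above for these scales. The counts by role that follow are on the CPM scale, to be read beside 38.4% of all measured genes lower and 10.7% higher, and then relative to the median gene, beside 24.3% and 22.5%. Of the 31 genes not measured, 9 had 0 UMIs in both libraries, among them the ligand genes INHBA, BMP2 and BMP6 and the BMP mediator gene SMAD1. Taken as 3 counts, the limit that a count of 0 allows is 0.155 CPM for control and 0.316 CPM for SP11.

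Few other ligands were present. Of 11 further ligand genes, TGFB2 (56 and 19 UMIs, log2 ratio -0.53, interval -1.36 to 0.24) and GDF11 (184 and 83 UMIs, -0.12, -0.51 to 0.26) were measured, and 0 of these passed 1.5-fold. Among genes that hold the ligand latent or release it, 3 of 6 measured were lower and 0 higher, and relative to the median gene 1 was lower and 0 higher. NRROS, which anchors latent TGF-beta on myeloid cells, was at -2.07 (-3.45 to -0.94) with 60 and 7 UMIs. LTBP4, which binds latent TGF-beta in the matrix, was at -0.86 (-1.14 to -0.59), LTBP1 of the same family at -0.24 and FURIN, which cleaves the precursor, at 0.15.

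Of 8 other measured receptors, 4 were lower by 1.5-fold and 0 higher, and relative to the median gene 2 were lower and 1 higher. BMPR1A and BMPR2, receptors for bone morphogenetic proteins, were at -1.07 (-1.38 to -0.78) and -0.97 (-1.15 to -0.79). The accessory receptor ENG was at -0.21 and the activin receptor ACVR2A at 0.28, the latter with 42 and 25 UMIs. Of the other SMADs, inhibitory SMAD6 was at -1.18 (-1.40 to -0.96) and SMAD5 at -0.53 (-0.80 to -0.26). Among 16 regulators of receptors and SMADs, 6 were lower and 0 higher, and relative to the median gene 0 were lower and 1 higher. They ranged from BAMBI, a decoy receptor, at -0.94 (-1.47 to -0.43) and RNF111, a ubiquitin ligase that removes inhibitors of the pathway, at -0.80 (-0.94 to -0.66), to USP15, a deubiquitinase, at 0.15 and FKBP1A, which holds the type I receptor inactive, at 0.36 (0.29 to 0.43).

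Of 9 measured nuclear partners, 1 was lower, the corepressor gene NCOR1 at -0.69 (-0.79 to -0.59), and 0 were higher. Relative to the median gene 0 were lower and 2 higher. The transcription factor gene RUNX1 was at -0.55, while HDAC1, a deacetylase, was at 0.48 (0.37 to 0.59) and E2F4, a partner in repression of growth genes, at 0.50 (0.28 to 0.72). In the branch that bypasses SMADs, 3 of 4 genes were lower: TAB1 at -1.61 (-2.08 to -1.17), TRAF6 at -0.78 and TAB2 at -0.68. Relative to the median gene only TAB1 was lower and 0 were higher. The kinase gene MAP3K7, whose product TAB1 activates, was at 0.01 (-0.14 to 0.16).

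Of 8 measured known targets of the pathway, 3 were lower and 3 higher, with a median log2 ratio of 0.27, and relative to the median gene 3 were lower and 4 higher. BHLHE40, a transcriptional repressor, had 699 and 98 UMIs and was at -1.81 (-2.13 to -1.50), and TSC22D1 had 1158 and 196 UMIs and was at -1.53 (-1.76 to -1.31). PMEPA1, a target that also inhibits the pathway, was at -0.98 (-1.65 to -0.37). CDKN1A, a cell cycle inhibitor, had 41 and 71 UMIs and was at 1.82 (1.25 to 2.41), KLF10 was at 1.10 (0.75 to 1.44) and ID2, an inhibitor of basic helix-loop-helix factors, at 0.94 (0.79 to 1.09). These targets, lower or higher, respond to signals besides TGF-beta, and the part of TGF-beta in their levels was not tested. Of the genes named from the wider list, those at 0, PMEPA1 and ID2 lie outside the ends of their role and were chosen after their values were seen.

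**Figure D5:**
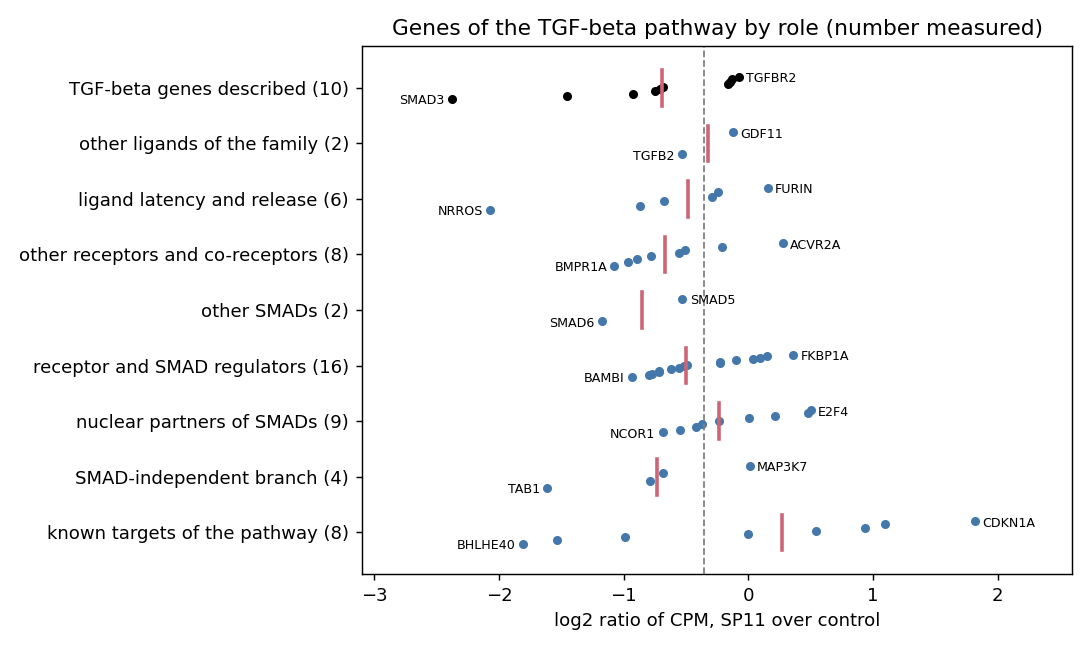
Log2 ratio of CPM of SP11 to control for the 10 genes described (black) and for the measured genes of each role in the wider list (blue), with the number measured in parentheses and the median of each row as a red bar. The dashed line marks -0.35, the median over measured genes, and the row of the 10 genes has its median at -0.69 and that of known targets at 0.27.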

How the data were processed

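Single-cell RNA sequencing was performed on 2 libraries, control and SP11, grouped by the labels' treatment field. The authors deposited UMI counts per gene and barcode, not normalized. Per the file headers these came from Cell Ranger 7.1.0, and the labels give GRCh38 (hg38) as the genome build. The setting for reads in introns is not stated in the sources read. Kept barcodes had at least 200 genes and no more than 20% of UMIs from mitochondrial genes, after the study's methods, though the study states fewer kept cells than these filters left. Scrublet (scanpy 1.11.5) called 45 control and 21 SP11 doublets, which were kept.

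CPM were computed from the UMIs of all kept cells of a library, with exact 95% intervals that cover counting error only. No test between groups was made, because cells of 1 library are not replicates. Each library was clustered (resolution 0.5) and scored for phase by itself in Seurat 5.3.0 under R 4.3.3. Gene spans and intronic lengths were taken from GENCODE 44, and ratios were compared with the median of 20 bins of intronic length. Genes were named by rule: the 10 genes, the 2 highest and 2 lowest measured genes of each role, and 5 leading genes of each cluster described (20 or more UMIs in the cluster). The genes and lists were chosen with earlier results of these data known. The ratio code was tested on simulated data.

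Alternatives were TMM factors (edgeR 4.0.16), DESeq2 1.42.0 size factors, other cell filters, minimums, weights, thinning depths and resolutions, and the intronic length trend. Removal of shared barcodes, of shallow clusters and of SP11 cluster 5, and the values by phase, were added after the data were seen. Protein sequences were not analysed here.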

Additional observations from a re-analysis of the deposited data

How the results depend on the processing

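Each group holds 1 library, so no replicate could be left out, and counting intervals do not measure the spread between cultures. No paired analysis was possible because each group holds 1 library. SMAD3 was between -2.43 and -1.68 and TGFB1 between -1.51 and -0.99 over 15 alternatives, and both were at least 1.5-fold lower in all 15. TGFBR1, TGFBR2, SMAD7 and SKIL were below 0 in 12 of the 15 and above 0 with TMM factors, DESeq2 size factors and the intronic length trend subtracted. Among the 15, the alternatives that change only the minimum of UMIs per gene cannot move a gene's own ratio, so they add no check of it. Low counts limit SMAD7, SKIL and TGIF1 most.

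The number of the 10 genes at least 1.5-fold lower went from 6 to 3 with TMM factors, 2 with DESeq2 size factors and 2 with the intronic length trend subtracted, and their median log2 ratio from -0.69 to -0.37, -0.34 and -0.24. In the wider list the number lower went from 21 to 9, 9 and 7, the number higher from 3 to 8, 8 and 10, and the median from -0.51 to -0.18, -0.16 and 0.14 under the same 3 settings. The shares of all measured genes under these 3 settings are given above. In the wider list the number higher was also 5 of 55 with an equal weight per cell, beside 1368 of 12128 measured genes. With a minimum of 1 UMI in each library, which tests more genes, it was 7 of 66, beside 2638 of 17455 genes. TMM and DESeq2 factors shift all ratios by 0.33 and 0.35 on the log2 scale. Of all 332 values recomputed, 225 moved by less than their counting error or by less than 1.5 times for a count, 107 moved further, and 0 values past 1.5-fold changed sign. Among those that moved further are the shares of cells with a UMI at other thinning depths or without thinning, which change with depth by construction.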
